A study of Rattus norvegicus with 54 samples.

Results

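The renin-angiotensin system is a chain of secreted proteins, enzymes and receptors that sets blood pressure and salt balance. Angiotensinogen is cut to a short peptide, angiotensin-converting enzyme trims that to angiotensin II, and angiotensin II acts mainly through the type 1 receptor, with the type 2 receptor often acting against it. In the heart the chain is known for its part in scar formation and in the enlargement of the ventricle after an infarct, and drugs that block the converting enzyme or the type 1 receptor are standard treatment. The 6 genes described here are Agt (angiotensinogen), Ace (angiotensin-converting enzyme), Agtr1a and Agtr1b (the pair of rodent type 1 receptor genes), Agtr2 (the type 2 receptor) and Atp6ap2 (the (pro)renin receptor, which is also a subunit associated with the vacuolar proton pump). They were picked by symbol, with earlier results of these data known, and all 6 were found among the 40319 genes listed in each library.

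The animals were 8-week-old female F344/NJcl-rnu/rnu rats, an athymic nude strain that lacks T cells. They had a sham operation, a permanent ligation of the proximal left anterior descending artery with no further treatment (MI), or the same ligation followed by an epicardial sheet of human endothelial progenitor cells laid on human smooth muscle cells (called cell sheet below), and the left ventricle was collected after 1 week. Each of 18 hearts, 6 per treatment, gave a library of the infarct zone (anterior wall), the border zone (lateral wall) and the remote zone (septum), which makes 54 libraries of poly(A) RNA. The zone names are places on the wall, so that in sham hearts they mark uninjured muscle. The reads were aligned to the rat genome only, and human reads of the sheet were not separated out. Any of them that aligned to rat genes would be counted in the cell sheet libraries.

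The libraries held 12699204 to 23397754 counts on genes. Levels are given as CPM, the count over the library size on a common scale, with edgeR's TMM scaling over all 54 libraries. They compare a gene between groups but not 1 gene with another, since no length enters. Without TMM the median log2 fold change of all genes against sham moved from -0.021 to 0.24 in the MI infarct zone and from 0.015 to 0.28 in the cell sheet infarct zone. By macrophage and cardiomyocyte markers, sham heart 5 and cell sheet heart 1 stood apart, and infarct zone libraries varied widely in heart muscle RNA. In sham heart 5 the summed level of 7 macrophage markers was 11811 CPM in the infarct zone, 11807 CPM in the border zone and 6699 CPM in the remote zone, while the other 15 sham libraries lay between 284 and 689 CPM. In cell sheet heart 1 the same sum in the remote zone was 3006 CPM against 364 to 691 CPM in the other 5 hearts. In its border zone the sum of 8 cardiomyocyte markers was 164 CPM against 8607 to 27577 CPM, so that this library held almost no heart muscle RNA. In the infarct zone the cardiomyocyte sum reached 38098 CPM in MI heart 1 (group median 11537) and 32106 CPM in cell sheet heart 6 (group median 2838). These libraries had the lowest macrophage sums (2267 and 1854 CPM) and the lowest Ace and Agtr1a of their groups. The part of muscle RNA in those levels was not tested. By 5 lung markers, 3 libraries stood apart, with a summed level of 143 CPM in MI border zone 3, 154 CPM in cell sheet border zone 4 and 52.7 CPM in cell sheet infarct zone 6, against at most 12.6 CPM in every other library. Values of the 6 genes and counts of the gene lists are given without sham heart 5 or cell sheet heart 1 where that changed a call or moved a count by over 1.5 times.

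Ace, the enzyme that makes angiotensin II, was higher after infarction in all zones. In the infarct zone the 6 sham hearts lay between 8.83 and 12.4 CPM (median 11.5) and the 6 MI hearts gave 29.2, 52.8, 37.9, 56.9, 53.8 and 42.3 CPM. Border zones of sham hearts lay between 8.08 and 13.7 CPM (median 11.9) and MI hearts between 35.1 and 46.4 CPM (median 42.4). Remote zones, from the septum, lay between 11.1 and 17.7 CPM in sham hearts (median 14.9) and between 21.1 and 42.4 CPM in MI hearts (median 29.8). The lowest MI library was above the highest sham library in each zone, a separation seen in 14.1%, 11.7% and 8.30% of all genes tested in the infarct, border and remote zone. The log2 fold change was 2.06 (SE 0.17, edgeR quasi-likelihood adjusted p = 3.6e-05), 1.84 (SE 0.13, adjusted p = 6.64e-05) and 1.13 (SE 0.18, adjusted p = 0.00143) in the same order. The rise was larger in the infarct than in the remote zone by 0.92 on the log2 scale (SE 0.12, adjusted p = 0.000615 for the interaction with the heart as a block, where 28.9% of all genes tested were called), and without sham 5 this difference was 0.93 (adjusted p = 0.00195).

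Agtr1a, the receptor through which angiotensin II raises vascular tone and fibroblast activity, also rose after infarction in all zones. In the infarct zone the sham hearts gave 1.93, 3.56, 3.92, 5.49, 5.49 and 3.24 CPM and the MI hearts 12.5, 37.5, 24.2, 44.1, 32.0 and 45.1 CPM. Border zones lay between 2.45 and 4.35 CPM in sham hearts (median 2.88) and between 21.0 and 54.7 CPM in MI hearts (median 27.7). The groups did not overlap in either zone. Remote zones lay between 1.68 and 4.57 CPM in sham hearts and between 3.79 and 25.8 CPM in MI hearts, and there the lowest MI heart lay within the sham range. The log2 fold change was 3.03 (SE 0.33, adjusted p = 8.08e-05), 3.50 (SE 0.29, adjusted p = 6.64e-05) and 1.94 (SE 0.43, adjusted p = 0.00641) in the infarct, border and remote zone. The sum of 7 fibroblast markers ran from 3611 to 8730 CPM in all sham libraries. In MI hearts it ran from 9665 to 16706 CPM (infarct zone), 8602 to 18654 CPM (border) and 4871 to 11143 CPM (remote). In cell sheet hearts it ran from 13540 to 27144, 12023 to 23337 and 3735 to 15861 CPM in the same order. The mean log2 level of the same 7 markers showed no such rise from MI to cell sheet hearts in the border and remote zones. In the same order its median was 9.59, 9.54 and 9.29 in MI and 9.63, 9.43 and 8.39 in cell sheet hearts. With all hearts, Agtr1a was not called between cell sheet and MI in any zone (described below). The part of fibroblast RNA in the level of Agtr1a was not tested. In the effect of MI on Agtr1a, the infarct zone exceeded the remote zone by 1.20 on the log2 scale. This did not pass the test (SE 0.50, adjusted p = 0.0859), although DESeq2 gave 1.20 with an adjusted p of 0.0426. Ace and Agtr1a were 2 of the 4 genes of the 6 that could be tested between MI and sham in the infarct zone, where 49.9% of all genes passed, 22.7% higher and 27.2% lower. They were 2 of 4 in the border zone (41.7% of all genes, 18.4% higher) and 2 of 3 in the remote zone (25.8% of all genes, 11.7% higher). In the infarct and border zones the count is near the share of all genes, so it does not mark the renin-angiotensin genes off from the rest. Without sham heart 5 the counts were 3 of 4 in each zone, as described below for Atp6ap2. The calls of Ace and Agtr1a in these 3 comparisons held under all 18 alternatives of each.

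**Figure D1:**
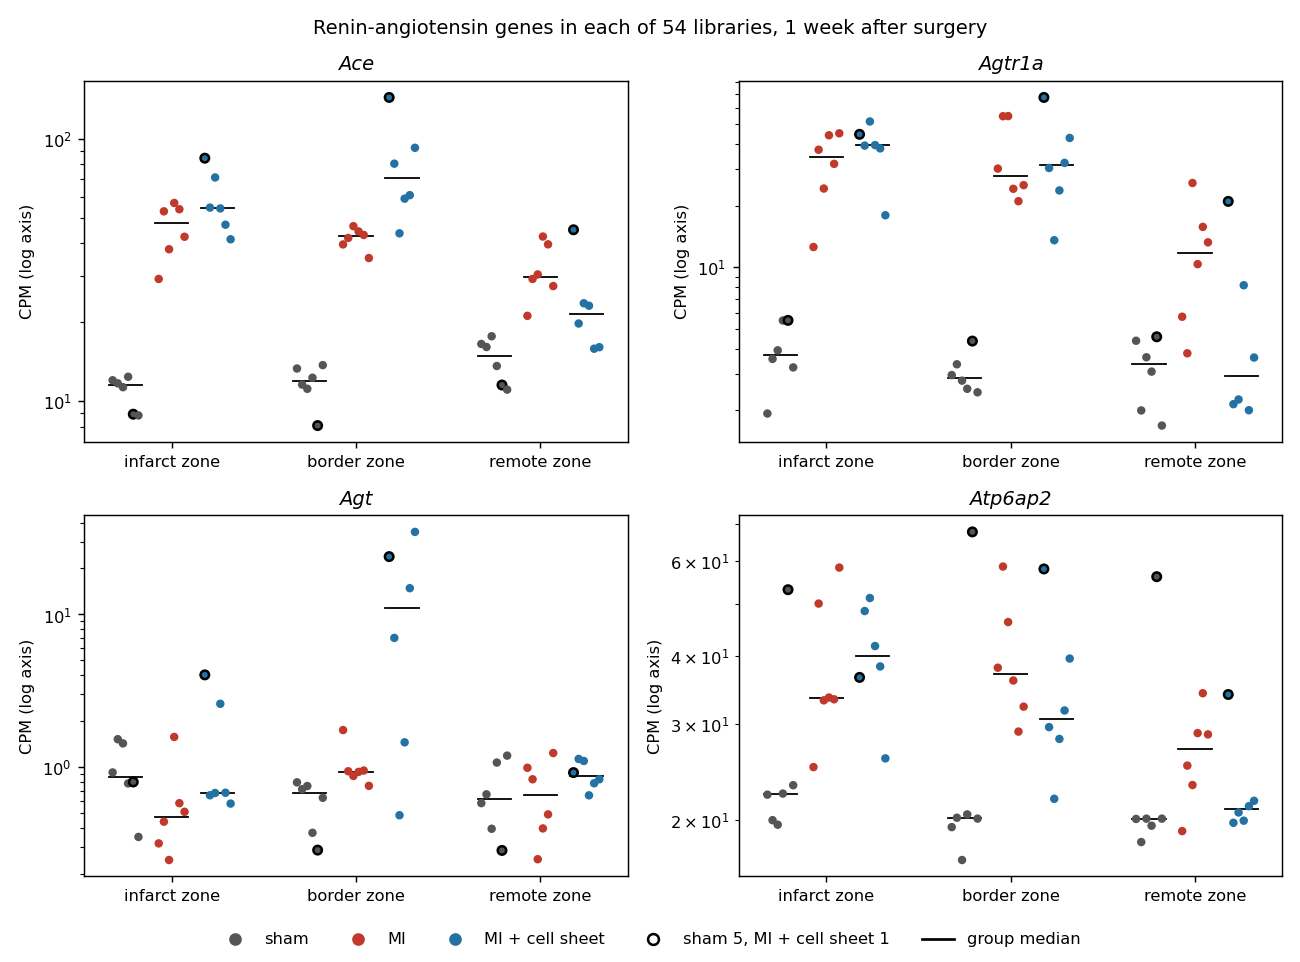
Level of Ace, Agtr1a, Agt and Atp6ap2 in each of 54 libraries in CPM on a log axis, by zone and treatment, with a bar at the group median and rings around sham heart 5 and cell sheet heart 1. For Ace and Agtr1a the MI and cell sheet libraries of the infarct and border zones lie above every sham library, Agt is high in single border zone libraries of cell sheet hearts, and Atp6ap2 in sham heart 5 (53.1, 67.8 and 56.1 CPM) lies above the other sham libraries.

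Since Ace and Agtr1a rose together, sequence upstream of their start sites is shown to place them in the genome. RefSeq's promoter table for the rat (GRCr8, a later assembly than the mRatBN7.2 build the authors used) matched 5 of the 6 genes, all but Agt. Capitals mark the letters TATAAA or GGGCGG on either strand, where neighbouring GGGCGG matches may overlap. The sequences read 5′ to 3′ in the direction of the gene. The Ace stretch ends just before its start, and the Agtr1a stretch lies further upstream.
Ace, chr10:91409879-91410128, plus strand: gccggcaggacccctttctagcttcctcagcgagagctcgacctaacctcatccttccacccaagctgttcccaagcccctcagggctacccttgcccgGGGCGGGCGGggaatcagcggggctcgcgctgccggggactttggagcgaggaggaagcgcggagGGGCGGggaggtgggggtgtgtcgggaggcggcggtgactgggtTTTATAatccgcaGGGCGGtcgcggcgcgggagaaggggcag
Agtr1a, chr17:34435460-34435489, minus strand, the 30 bases around its TATAAA: cgccccctaggcTATAAAtatggaagtgcc
In the 250 bases before its start, Ace held GGGCGG 4 times and 1 TATAAA match, which lies on the opposite strand 42 bases before the start. Agtr1a held 1 TATAAA on its own strand, 45 bases before the start, and 2 matches of GGGCGG. Atp6ap2 held 2 matches of GGGCGG and no TATAAA, and Agtr1b and Agtr2 held neither. Of all 33469 promoters of this length, 12.9% held TATAAA and 30.5% GGGCGG. These are matches of letters and show no binding.

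The comparison of cell sheet with untreated MI asks how the sheet changed the infarcted heart. In the border zone Ace was higher with the sheet. The cell sheet hearts gave 143, 80.2, 43.6, 59.0, 60.9 and 92.2 CPM and the MI hearts 39.5, 41.8, 46.4, 44.3, 42.9 and 35.1 CPM. Of the cell sheet libraries, 5 of 6 were above every MI library and the remaining library (43.6 CPM) lay inside the MI range. The log2 fold change was 0.94 (SE 0.24, adjusted p = 0.0171). Without cell sheet heart 1, whose border library held almost no muscle RNA, it was 0.70 (SE 0.17, adjusted p = 0.0158). Over 18 alternatives the fold change ran from 0.70 to 1.06, and the adjusted p exceeded the threshold only with the replicate number as a block (0.0918). Ace is an endothelial gene in most tissues, and the summed level of 7 endothelial markers ran from 806 to 1243 CPM in the MI and from 1115 to 1570 CPM in the cell sheet border zone. The median of that sum in the border zone was 1367, 1107 and 1274 CPM in sham, MI and cell sheet hearts. In the infarct zone it was 1440, 1012 and 952 CPM in the same order. The sum of 5 mesothelial markers was 628, 429, 44.5, 226, 248 and 529 CPM in border zones of cell sheet hearts 1 to 6, the same order of hearts as for Ace, and ran from 68.4 to 467 CPM in the MI border zone. Hearts 1, 2, 5 and 6, the 4 highest for Ace, were also those with much RNA of fat cell genes (described with Agt). The part of these cells in the level of Ace was not tested. Without MI heart 3 or cell sheet heart 4, whose border libraries held lung marker RNA, the log2 fold change was 0.97 (adjusted p = 0.0291) and 1.02 (adjusted p = 0.0167).

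Ace was not called with the sheet in the infarct and remote zones. In the infarct zone cell sheet hearts lay between 41.4 and 84.2 CPM and MI hearts between 29.2 and 56.9 CPM. The log2 difference was 0.36 (95% interval -0.06 to 0.78, adjusted p = 0.663). The remote zone gave 44.9, 19.8, 23.6, 23.1, 15.9 and 16.1 CPM in cell sheet hearts and 21.1, 29.2, 30.4, 42.4, 39.6 and 27.4 CPM in MI hearts. The highest cell sheet value there was heart 1. With it the log2 fold change was -0.42 (SE 0.25, adjusted p = 0.254), and without it -0.70 (SE 0.18, adjusted p = 0.00685, with 41.6% of all genes called in that fit). The difference between the border and the remote zone in the effect of the sheet on Ace was 1.35 on the log2 scale (SE 0.24, adjusted p = 0.0971), where edgeR called 0% of all genes (3430 genes had an unadjusted p under 0.05), and 1.35 (adjusted p = 0.044) without cell sheet heart 1. DESeq2 gave 1.31 (adjusted p = 0.000539) for the same difference with all hearts. The infarct zone exceeded the remote zone in the effect of the sheet by 0.85 (SE 0.14, adjusted p = 0.0999 by edgeR, which called 0% of all genes with 4190 at an unadjusted p under 0.05, and adjusted p = 0.000145 by DESeq2). Without cell sheet heart 1 this difference was 0.92 (adjusted p = 0.012, with 11.8% of all genes called). The border and the infarct zone differed by 0.50 (SE 0.27, adjusted p = 0.509, with 0% of all genes called and 2012 at an unadjusted p under 0.05), so that the effect on Ace was not shown to differ between them.

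Agtr1a was not called with the sheet in any zone. In the border zone the cell sheet hearts gave 67.5, 30.5, 13.5, 23.7, 32.3 and 42.8 CPM and the MI hearts 30.3, 54.6, 54.7, 24.1, 21.0 and 25.2 CPM. The range of the MI hearts lay inside that of the cell sheet hearts. The log2 difference was 0.00 (95% interval -0.78 to 0.79, adjusted p = 0.995), and its sign changed with the processing. With 6 hearts per group, a difference anywhere within that interval remains possible. The infarct difference was 0.23 (95% interval -0.40 to 0.87, adjusted p = 0.859). The remote zone gave 21.0, 2.14, 2.26, 8.16, 2.00 and 3.62 CPM in cell sheet hearts and 5.72, 3.79, 25.8, 10.3, 15.7 and 13.2 CPM in MI hearts. Heart 1 again held the highest cell sheet value. The log2 fold change was -0.94 (SE 0.62, adjusted p = 0.298) with it and -1.79 (SE 0.49, adjusted p = 0.0111) without it.

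Agt, the precursor from which all angiotensin peptides are cut, was a low gene in most libraries and high in a few. In the border zone the cell sheet hearts gave 23.9, 7.03, 0.485, 1.46, 14.9 and 34.7 CPM and the MI hearts 1.75, 0.942, 0.877, 0.933, 0.952 and 0.756 CPM. In 4 of 6 cell sheet hearts the level exceeded every MI heart, 1 lay within the MI range and 1 below it. The log2 fold change was 3.73 (SE 0.84, adjusted p = 0.00987) with all hearts and 3.51 (adjusted p = 0.0163) without cell sheet heart 1. The call was lost with the replicate number as a block (2.83, adjusted p = 0.0955), and it held without MI heart 3 (3.69, adjusted p = 0.0241) and without cell sheet heart 4 (3.98, adjusted p = 0.006). In the infarct zone the sheet hearts gave 4.02, 0.656, 0.679, 2.60, 0.681 and 0.578 CPM and the difference did not pass the test (log2 1.30, 95% interval -0.03 to 2.64, adjusted p = 0.614). All 6 remote zones of sheet hearts lay between 0.655 and 1.13 CPM (log2 difference from MI 0.36, adjusted p = 0.507).

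The border zone libraries with much Agt were those with much RNA of fat cell genes. Plin1, which coats the fat droplet of adipocytes, was at 128, 42.6, 0, 2.07, 133 and 193 CPM in border zones of cell sheet hearts 1 to 6. Adipoq, the adipocyte hormone adiponectin, was at 182, 49.9, 0, 1.85, 118 and 233 CPM in the same order. Hearts 1, 2, 5 and 6 held the high values of all 3 genes, and hearts 3 and 4 the low ones. In the MI border zone Plin1 did not exceed 4.38 CPM and Adipoq 18.6 CPM, and in sham libraries Plin1 did not exceed 0.981 CPM and Adipoq 2.66 CPM. The MI library with the most Agt outside the border zone, infarct zone 4 at 1.58 CPM, was also the one with the most Adipoq (34.4 CPM) of all MI libraries. Sham infarct zone 2 was close to it in Agt (1.53 CPM) with 0 counts of Adipoq and 0 of Plin1. The whole list of 6 adipocyte markers, whose sum is set largely by Fabp4, a gene that capillary cells also express, lay between 300 and 1113 CPM in the cell sheet border zone, between 259 and 889 CPM in the MI border zone and between 231 and 1364 CPM in the sham border zone. The part of fat cell RNA in the level of Agt was not tested. In bulk tissue, here and below, more or fewer cells of a type cannot be told apart from more or less RNA per cell.

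**Figure D2:**
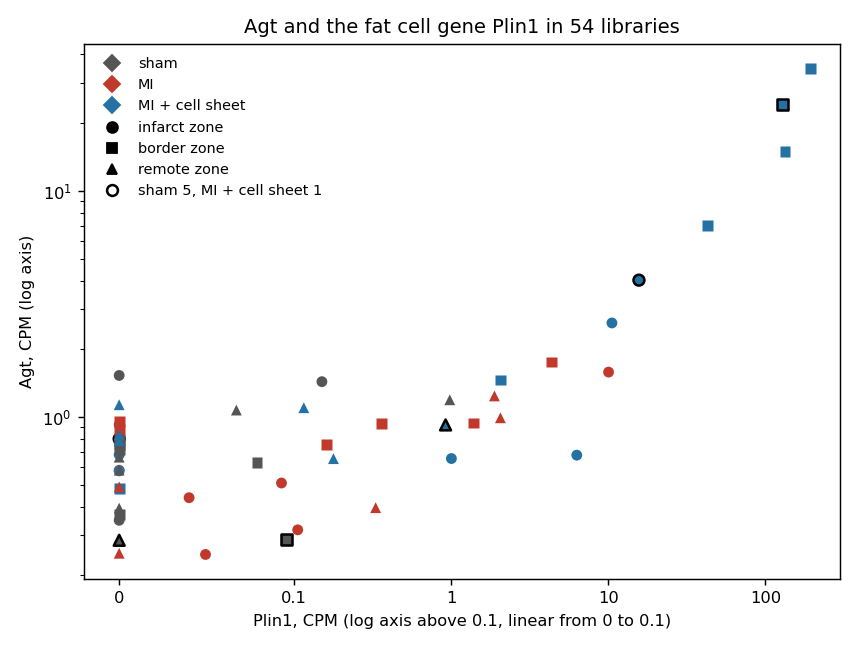
Agt against the fat cell gene Plin1 in 54 libraries, both in CPM, with a log axis for Agt and an axis for Plin1 that is linear from 0 to 0.1 and logarithmic above, symbols for zones and colours for treatments. The border zone libraries of cell sheet hearts 1, 2, 5 and 6 lie together at the upper right, with Plin1 between 42.6 and 193 CPM and Agt between 7.03 and 34.7 CPM.

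Against sham, Agt was not called after untreated MI. In the infarct zone sham hearts lay between 0.350 and 1.53 CPM and MI hearts between 0.247 and 1.58 CPM (log2 difference -0.66, SE 0.47, adjusted p = 0.256). The highest MI value was heart 4, the MI library with the most Adipoq, and without it the log2 fold change was -1.20 (adjusted p = 0.0284). The border zone of sham hearts lay between 0.287 and 0.797 CPM and that of 5 of 6 MI hearts above them (log2 difference 0.82, SE 0.32, adjusted p = 0.0536). That value passed without TMM scaling (1.02, adjusted p = 0.02). Agt in the remote zone was too low for the default filter and was not tested.

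Atp6ap2 was highest among sham libraries in the heart with the most macrophage RNA. Sham hearts 1 to 4 and 6 lay between 16.9 and 23.2 CPM over all zones, and sham heart 5 gave 53.1 CPM in the infarct, 67.8 CPM in the border and 56.1 CPM in the remote zone. MI hearts lay between 25.0 and 58.3 CPM in the infarct zone, between 29.1 and 58.5 CPM in the border zone and between 19.1 and 34.2 CPM in the remote zone. Sham heart 5, with its high macrophage marker sum, thus lay at or above most MI libraries. With all hearts the log2 difference of MI from sham was 0.52 (SE 0.28, adjusted p = 0.139), 0.54 (SE 0.34, adjusted p = 0.214) and 0.04 (SE 0.28, adjusted p = 0.928) in the infarct, border and remote zone. Without sham heart 5 it was 0.85 (SE 0.19, adjusted p = 0.0021), 1.05 (SE 0.16, adjusted p = 0.000252) and 0.44 (SE 0.13, adjusted p = 0.012), while 64.8%, 60.8% and 46.5% of all genes were called. The macrophage marker sum ran from 2267 to 11394 CPM in the MI infarct zone and from 763 to 3001 CPM in the MI remote zone. Its part in the level of Atp6ap2 was not tested.

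**Figure D3:**
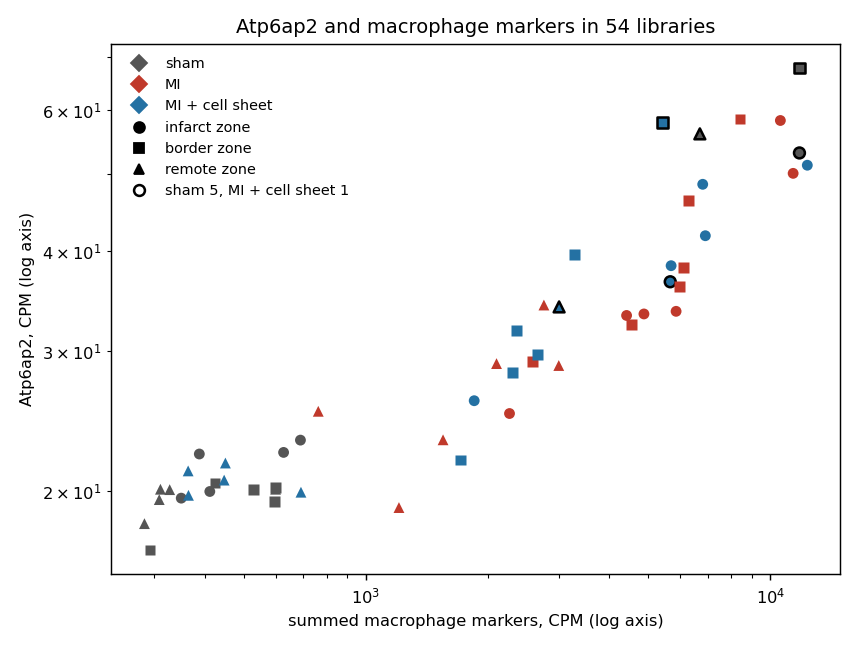
Atp6ap2 against the summed level of 7 macrophage markers in 54 libraries, both in CPM on log axes, with symbols for zones and colours for treatments. Sham libraries other than heart 5 lie between 16.9 and 23.2 CPM of Atp6ap2, and the ringed libraries of sham heart 5 lie among the infarcted ones at the upper right.

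With all hearts, Atp6ap2 was not called with the sheet in any zone. The log2 difference from MI was 0.05 (95% interval -0.40 to 0.50), -0.20 (-0.70 to 0.30) and -0.23 (-0.59 to 0.13) in the infarct, border and remote zone. The remote zone of cell sheet heart 1 gave 34.0 CPM and the other 5 hearts 19.8 to 21.7 CPM, and without heart 1 the log2 fold change was -0.38 (SE 0.13, adjusted p = 0.0325). The remote zone of heart 1 was thus the highest cell sheet value of Ace, Agtr1a and Atp6ap2 alike, and leaving it out took the count of members called lower from 0 of 4 (6.79% of all genes called lower with it, 17.1% in either direction) to 3 of 4 (41.6% of all genes called in either direction without it).

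In counts over the genes tested, cell sheet against MI called 0 of 4 members in the infarct zone (0% of all genes by edgeR, with 1341 genes at an unadjusted p under 0.05), 2 of 4 in the border zone (Agt and Ace, both higher, beside 18.0% of all genes, 8.47% higher and 9.48% lower) and 0 of 4 in the remote zone (17.1% of all genes). No member had groups free of overlap in these comparisons, as 9.64% of all genes had in the border zone, 4.97% in the remote zone and 0.747% in the infarct zone. With the infarct and border libraries of each heart summed, Ace (log2 0.67, SE 0.18, adjusted p = 0.0307) and Agt (3.29, SE 0.69, adjusted p = 0.0123) were 2 of 5 called, both higher, beside 12.1% of all genes (6.02% higher and 6.09% lower). The summed call of Ace was lost under 6 of 17 alternatives, 5 of them the loss of a single heart, with a highest adjusted p of 0.13.

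**Figure D4:**
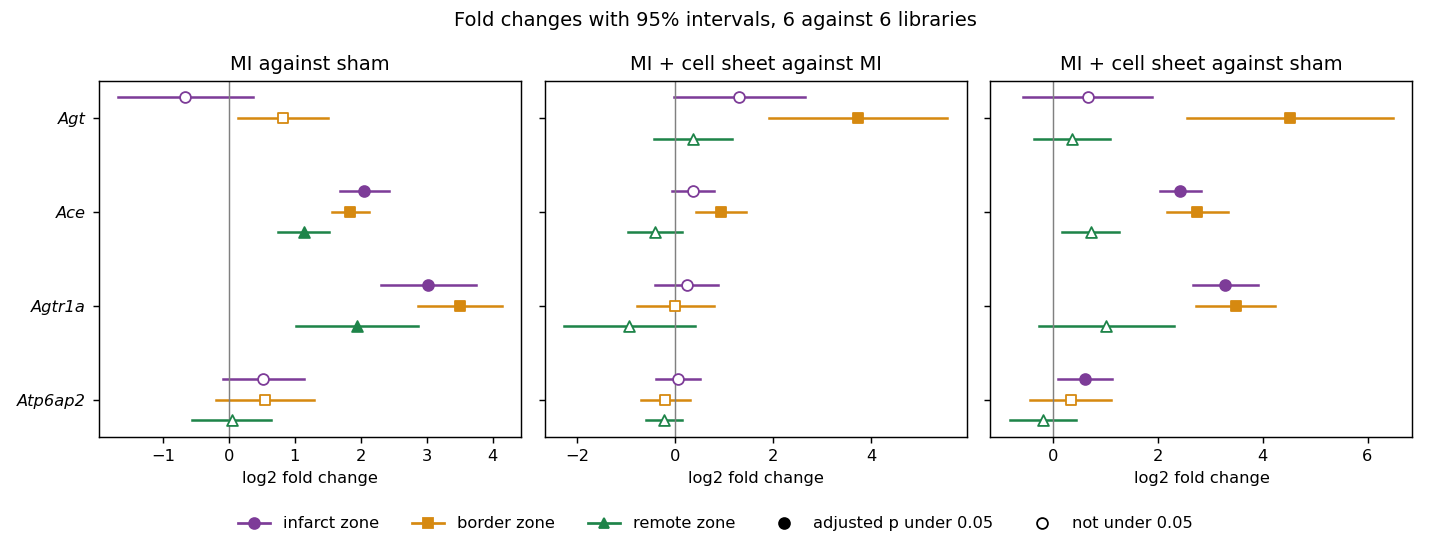
Log2 fold changes of Agt, Ace, Agtr1a and Atp6ap2 with 95% intervals in the 3 treatment comparisons and 3 zones, with filled symbols where the adjusted p is under 0.05. MI against sham is called for Ace and Agtr1a in all zones, cell sheet against MI for Ace (0.94) and Agt (3.73) in the border zone, and Agt in the remote zone of MI against sham was not tested.

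Cell sheet hearts against sham asks how far the treated hearts were from uninjured ones. Ace was higher by 2.43 (adjusted p = 6.75e-06) and 2.75 (adjusted p = 2.4e-05) on the log2 scale in the infarct and border zone, and Agtr1a by 3.29 (adjusted p = 1.23e-05) and 3.49 (adjusted p = 2.51e-05). Neither gene's groups overlapped in these zones, as for 20.9% and 19.6% of all genes. In the remote zone no member was called. There Ace differed by 0.72 (95% interval 0.17 to 1.26, adjusted p = 0.403) and Agtr1a by 1.01 (-0.28 to 2.30, adjusted p = 0.617), and 0.00660% of all genes were called, a single gene. The comparison shares its cell sheet libraries with the comparison to MI and its sham libraries with the infarct effect. Atp6ap2 passed in the infarct zone (0.61, SE 0.24, adjusted p = 0.0419), a call lost under 14 of 19 alternatives, and not in the border zone (0.33, adjusted p = 0.465). Without sham heart 5 these values were 0.89 (adjusted p = 0.000379) and 0.81 (adjusted p = 0.00567). The 3 members called in the infarct zone stand beside 57.9% of all genes (28.6% higher), and the 3 in the border zone (Agt, Ace and Agtr1a) beside 43.6% (20.4% higher). All 6 of these calls were higher in cell sheet hearts.

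The zones of the same heart were compared with the heart as a block. In sham hearts Ace was lower in the anterior wall than in the septum (log2 -0.41, SE 0.10, adjusted p = 0.0055), and it was the only member called there (32.4% of all genes). In MI hearts Ace was higher in the infarct than in the remote zone by 0.51 (SE 0.09, adjusted p = 0.00935), Agtr1a by 1.49 (SE 0.38, adjusted p = 0.0188) and Atp6ap2 by 0.50 (SE 0.15, adjusted p = 0.0325), where 36.4% of all genes were called. The call of Agtr1a was lost without MI heart 4 or 6 (adjusted p = 0.0593 and 0.0557) and that of Atp6ap2 under 5 of 9 alternatives. In cell sheet hearts the same 3 genes were higher by 1.34 (SE 0.11, adjusted p = 0.00324), 3.04 (SE 0.53, adjusted p = 0.00365) and 0.80 (SE 0.19, adjusted p = 0.00902), beside 62.8% of all genes. The border zone of cell sheet hearts exceeded the remote zone by 1.74 (adjusted p = 0.00294) for Ace, 2.81 (adjusted p = 0.00294) for Agtr1a, 0.58 (adjusted p = 0.00399) for Atp6ap2 and 3.10 (adjusted p = 0.0189) for Agt, so that all 4 members tested were called (56.4% of all genes). The call of Agt was lost without heart 2, 5 or 6 (adjusted p = 0.0512, 0.0645 and 0.0558). Between border and remote zone 0 members were called in sham hearts (25.7% of all genes) and in MI hearts (0% of all genes by edgeR, with 5943 at an unadjusted p under 0.05), although for MI hearts DESeq2 called 2.

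In the order of group medians, Ace ran from 70.5 CPM in the cell sheet border zone through 54.4 in the cell sheet infarct, 47.6 in the MI infarct, 42.4 in the MI border, 29.8 in the MI remote and 21.4 in the cell sheet remote zone to 14.9, 11.9 and 11.5 CPM in the remote, border and infarct zone of sham hearts. Each neighbour in that order overlapped the next. Agtr1a ran from 39.4 CPM in the cell sheet infarct zone through 34.7 (MI infarct), 31.4 (cell sheet border), 27.7 (MI border) and 11.8 (MI remote) to between 2.88 and 3.74 CPM in the 3 sham zones and the cell sheet remote zone (2.94 CPM). By Pearson's r of log2 CPM over the 54 libraries, the genes most like Ace were Fndc3b (0.96), Stab1 (0.95) and Grb10 (0.95). Those most like Agtr1a were Cd276, Spon1 and Pcolce (each 0.97), those most like Atp6ap2 were Actr2, Cap1 and Cdc42se1 (each 0.96), and those most like Agt were Acvr1c (0.85), Plin1 (0.84) and Retn (0.84). The points share zones, hearts and tissue composition, so these values describe the libraries and carry no test. By rank, the gene closest to Agt was Agmo (Spearman's rho 0.62), and Acvr1c was at 0.56.

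Agtr1b and Agtr2 had few reads. Agtr1b had 2 counts in each of 3 libraries (sham infarct 6, cell sheet infarct 2 and cell sheet border 6) and 0 in the other 51. A count of 0 allows up to 3 counts. Agtr1a and Agtr1b are close copies, so reads may have been split between them. Agtr2 had 0 counts in all 18 sham libraries. Infarct zones had 0, 20, 2, 2, 0 and 8 counts in MI hearts and 1, 28, 19, 5, 7 and 10 counts in cell sheet hearts. Border zones had 0, 14, 16, 0, 0 and 1 counts in MI hearts and 28, 1, 0, 1, 4 and 15 counts in cell sheet hearts. Every cell sheet heart thus had Agtr2 reads in the infarct zone, and in the remote zone 2 cell sheet hearts (5 and 3 counts) and 1 MI heart (2 counts) had any.

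Against a floor of 3 counts over the sham group, Agtr2 was at least 16.2-fold higher in the cell sheet infarct zone, 11.1-fold in the cell sheet border zone, 6.91-fold in the MI infarct zone and 7.61-fold in the MI border zone. Single hearts carried much of these bounds. Without the heart with the most reads they were 6.39-fold in the cell sheet border zone (heart 1, 28 of 49 counts), 3.41-fold in the MI infarct zone (heart 2, 20 of 32 counts), 4.38-fold in the MI border zone (heart 3, 16 of 31 counts) and 11.9-fold in the cell sheet infarct zone (heart 2, 28 of 70 counts), an alternative added after the counts were seen. Since edgeR's filter left Agtr2 out of the zone comparisons, log2(CPM + 0.1) was compared by an exact 2-sided permutation test of 6 against 6 hearts, adjusted over the 9 treatment comparisons. This test was added after the counts were seen, and its smallest possible p is 0.00216. Cell sheet against sham gave 2.33 in the infarct zone (permutation p = 0.00216, adjusted 0.0195) and 1.52 in the border zone (p = 0.0152, adjusted 0.0682), of which only the first passed after adjustment. In the border zone 5 of 6 cell sheet hearts and 0 of 6 sham hearts held reads. MI against sham gave 1.22 (permutation p = 0.0606, adjusted 0.182) and 1.09 (p = 0.182, adjusted 0.327) in the same zones. Cell sheet against MI gave 1.11 in the infarct zone (permutation p = 0.139, adjusted 0.312), so that the treated and the untreated infarct were not shown to differ.

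**Figure D5:**
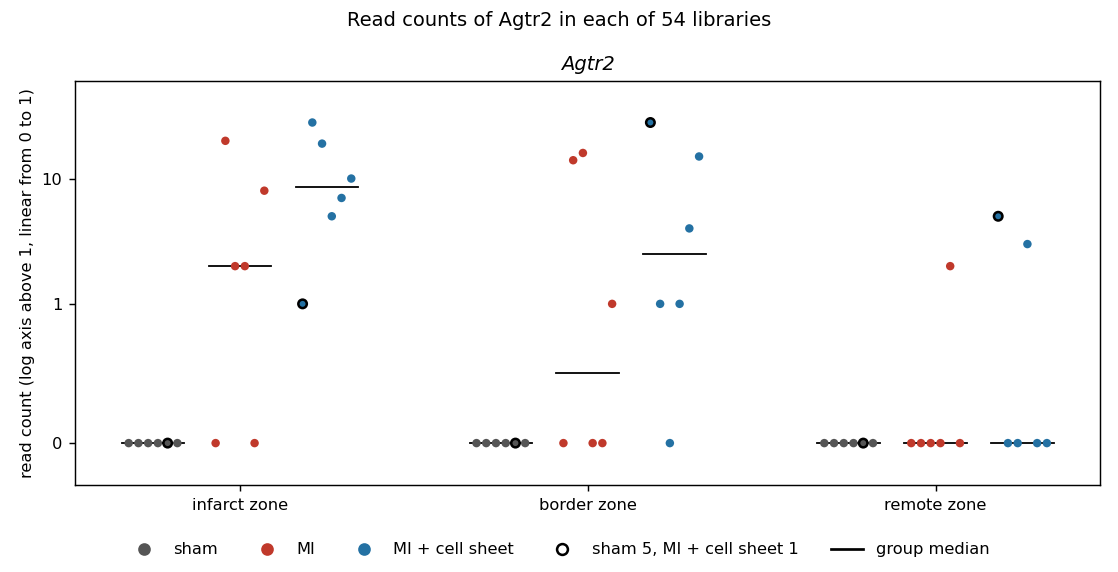
Read counts of Agtr2 in each of 54 libraries by zone and treatment, on an axis that is linear from 0 to 1 and logarithmic above, with a bar at the group median. Agtr2 has 0 counts in all sham libraries, and in the infarct zone every cell sheet library has at least 1 count.

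Cma1 encodes a mast cell chymase. Chymases of some species can make angiotensin II without the converting enzyme, and the activity of the rat protein was not measured here. In the border zone it was at 102, 100, 2.43, 35.4, 47.0 and 92.0 CPM in cell sheet hearts and 26.2, 9.69, 20.0, 3.78, 4.88 and 24.9 CPM in MI hearts, while sham hearts lay between 1.88 and 5.60 CPM. In 5 of 6 cell sheet hearts it exceeded every MI heart, and heart 3 lay below all of them. MI exceeded sham there by 1.79 (SE 0.49, adjusted p = 0.0129). Cell sheet against MI gave 2.09 (SE 0.72, adjusted p = 0.0636) in the border zone by edgeR and 2.09 (adjusted p = 0.0113) by DESeq2, and the sum of infarct and border zones gave 1.84 (SE 0.39, adjusted p = 0.013). The sum of 6 mast cell markers, which do not include Cma1, ran from 35.5 to 153 CPM in the cell sheet border zone, from 35.8 to 99.0 CPM in the MI border zone and from 26.4 to 36.6 CPM in the sham border zone. Its part in Cma1 was not tested. Agtrap, whose protein binds the type 1 receptor and promotes its internalization, was higher in MI than in sham hearts by 0.41 (SE 0.14, adjusted p = 0.0269) in the infarct and 0.42 (SE 0.12, adjusted p = 0.0158) in the border zone, the former lost under 6 of 18 alternatives. Mas1, the receptor for angiotensin-(1-7), did not exceed 1.80 CPM in any library and was called in no treatment comparison in which it was tested.

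The gene lists below are read against all genes tested between MI and sham, of which 49.9% were called in the infarct zone (22.7% higher, 27.2% lower), 41.7% in the border zone (18.4% higher, 23.2% lower) and 25.8% in the remote zone (11.7% up, 14.2% down). These shares were 64.8%, 60.8% and 46.5% without sham heart 5. Between cell sheet and MI they were 0%, 18.0% (8.47% higher, 9.48% lower) and 17.1% (10.3% higher, 6.79% lower) in the same order, and without cell sheet heart 1 they were 0%, 18.8% and 41.6%. The enzymes that trim angiotensin peptides moved in both directions after infarction. Of 12 tested, 5 rose and 3 fell in the infarct zone (median log2 fold change 0.12 against -0.021 of all genes), 5 rose and 3 fell in the border zone (median 1.01) and 2 rose and 3 fell in the remote zone (median 0.06), beside 49.9%, 41.7% and 25.8% of all genes called. The remote count was 8 of 12 without sham heart 5 (46.5% of all genes). Anpep, an aminopeptidase that shortens angiotensin III, rose by 3.24 (SE 0.47, adjusted p = 0.000439) in the infarct zone, and the lysosomal proteases Ctsb and Ctsa by 1.86 (adjusted p = 0.0012) and 1.63 (adjusted p = 0.00124). Thop1, which makes angiotensin-(1-7), fell by 0.49 on the log2 scale in the remote zone (adjusted p = 0.00227). With the sheet, 1 of 12 rose in the border zone (Cpa3, a mast cell protease) and 2 of 12 in the remote zone (Prep and Thop1, the latter by 0.39, SE 0.10, adjusted p = 0.0232). Without cell sheet heart 1 the border count was 0 and the remote zone count 2 higher and 4 lower (41.6% of all genes). Cpa3 and Prep lie outside the rule for named genes and were picked after their values were seen.

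Among 13 receptor partners and coupling genes tested, 4 rose and 2 fell in the MI infarct zone, 3 rose and 2 fell in the border zone and 2 rose and 1 fell in the remote zone, which is 6, 5 and 3 of 13 beside 49.9%, 41.7% and 25.8% of all genes. Arap1, which recycles the type 1 receptor to the cell surface, rose by 0.98 (SE 0.19, adjusted p = 0.00186) in the infarct zone. Zbtb16, which binds the type 2 receptor, was lower (-1.33, SE 0.28, adjusted p = 0.00314). Without sham heart 5 the calls were 11, 11 and 10 of 13, beside 64.8%, 60.8% and 46.5% of all genes. With the sheet only Rgs5, which damps G protein signalling in pericytes, was called in the border zone (0.63, SE 0.12, adjusted p = 0.00429), and 0 of 13 in the infarct and remote zones. Without cell sheet heart 1 the remote count was 3 higher and 5 lower of 13, beside 41.6% of all genes. Rgs5 is also 1 of the 6 mural cell markers, and the sum of those markers was higher in every cell sheet border zone (917 to 1136 CPM) than in every MI border zone (469 to 696 CPM). It also differed without overlap in the remote zone, with 911 to 1091 CPM against 535 to 673 CPM.

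In the aldosterone branch, which angiotensin II drives in the adrenal gland, 3 of 5 genes tested rose and 1 fell in the MI infarct zone, and 1 rose and 1 fell of 4 in the border and in the remote zone, beside 49.9%, 41.7% and 25.8% of all genes. Nr3c2, the mineralocorticoid receptor, fell in all 3 zones (-1.43, adjusted p = 0.00678, then -1.41, adjusted p = 0.0072, and -0.84, adjusted p = 0.00573), and it was higher with the sheet in the remote zone (0.75, SE 0.21, adjusted p = 0.0296). Sgk1, a kinase induced by that receptor and by other signals, rose by 1.32 (adjusted p = 0.00295) in the infarct zone. Hsd11b1, which regenerates active glucocorticoid, was lower with the sheet in the border zone (-1.10, SE 0.30, adjusted p = 0.0253) and the remote zone (-0.56, adjusted p = 0.0472). Reads listed as Cyp11b1, a steroid hydroxylase, numbered 0 in the sham infarct zone and 302 in the MI infarct zone, at least 69.6-fold higher against a floor of 3 counts over the group, and at least 172-fold higher in the cell sheet infarct zone. The gene has near-identical copies, so this assignment is uncertain.

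In the kinin branch, whose peptide bradykinin the converting enzyme degrades, both genes tested rose in the MI infarct and border zones. They were Bdkrb2, the bradykinin receptor (1.46, SE 0.21, adjusted p = 0.00042, and 1.54, adjusted p = 0.00569), and Cpm, a carboxypeptidase (1.87, SE 0.30, adjusted p = 0.000753, and 1.57, adjusted p = 0.0024). Cpm also rose in the remote zone (1.57, adjusted p = 0.00551), and with the sheet no kinin gene was called in any zone (in the remote zone 1 of 2 was lower without cell sheet heart 1, beside 41.6% of all genes). In MI against sham both were called higher in the remote zone without sham heart 5 (46.5% of all genes). Of 11 genes known to be induced through the type 1 receptor, 9 rose and 1 fell in the MI infarct zone (median 1.89), 5 rose in the border zone (median 1.53) and 3 rose in the remote zone (median 0.83), beside 49.9%, 41.7% and 25.8% of all genes. Without sham heart 5, 8 of 11 rose in each of the border and remote zones, beside 60.8% and 46.5% of all genes. Ccn2, the matrix factor formerly called CTGF, rose by 2.88 (SE 0.32, adjusted p = 8.29e-05) in the infarct and 1.62 in the remote zone, Edn1 (endothelin 1) by 2.39 (adjusted p = 0.000122) and 2.07, and Thbs1 (thrombospondin 1) by 3.54 (adjusted p = 0.000702) and 2.20. These genes answer to many other signals as well. With the sheet 0 of 12 were called in the infarct zone, 0 of 11 in the border zone and 2 of 11 in the remote zone, both lower (Nox4 and Tgfb1, named after their values were seen), and without cell sheet heart 1 the remote zone count was 9 of 11, all lower, beside 41.6% of all genes called in either direction in that fit. The border count without it was 1 of 11, lower.

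The vacuolar proton pump, with which the (pro)renin receptor is associated, was measured by 15 subunit genes. In the MI infarct zone 4 rose and 4 fell (median -0.08), in the border zone 4 rose and 3 fell, and in the remote zone 1 rose and 3 fell. These counts stand beside 49.9%, 41.7% and 25.8% of all genes called and do not mark the pump off from the rest. With the sheet 2 rose and 7 fell in the border zone (median -0.30), 0 were called in the infarct zone and 2 rose in the remote zone, beside 18.0% of all genes in the border zone (9.48% lower), 0% in the infarct and 17.1% in the remote zone. Atp6v0b (-1.07, SE 0.14, adjusted p = 0.000908), Atp6v1g1 (-0.73, SE 0.10, adjusted p = 0.000857) and Atp6v1e1 (-0.62, SE 0.14, adjusted p = 0.0098) were among those lower with the sheet, while Atp6ap2 itself differed by -0.20. Without cell sheet heart 1 the border count was 2 higher and 8 lower (18.8% of all genes) and the remote count 4 higher (41.6% of all genes). The macrophage marker sum in the border zone was 1713 to 5419 CPM in cell sheet hearts and 2580 to 8422 CPM in MI hearts. The mean log2 level of the same 7 markers there had a median of 7.92 in cell sheet and 7.95 in MI hearts. The part of macrophage RNA in the lower subunit genes was not tested.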

How the data were processed

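The authors aligned paired-end reads with STAR to the rat genome mRatBN7.2 and deposited 1 table of whole-number gene counts per library. These raw counts are not normalized, and which program counted reads, and with which strand setting, is not given in the sources used here, so overlapping genes and close copies (Agtr1a and Agtr1b) may share reads. The submitters' notes also name DESeq2. The 5 summary lines of each table name no gene, held 17.0% to 42.8% of the counts and stayed out of library sizes and tests. No column of another sample was present (0 left out).

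The labels call the samples of a group technical replicates, while the methods describe separate hearts. The libraries were taken as 1 per heart and zone, and if they were not separate animals, p-values measure only the spread between samples. All 135 pairs within groups differed by more than sampling noise (chi-square per degree of freedom 7.97 to 539 over genes with at least 50 counts).

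Counts were tested with edgeR 4.0.16 under R 4.3.3 (with limma 3.58.1 loaded): the quasi-likelihood F test, TMM, filterByExpr and Benjamini-Hochberg adjustment over all genes tested, threshold 0.05, with the 12 libraries of the 2 groups compared. Comparisons of zones, and of effects between zones, had the heart as a block. Same-numbered samples of a treatment were taken as zones of 1 heart, as the methods describe. Correlations of their deviations from group means were 0.26 to 0.94 in sham hearts, -0.27 to 0.44 in MI hearts and -0.24 to 0.56 in cell sheet hearts. Agtr2, too low for the fit, was compared by an exact permutation test. Alternatives were DESeq2 1.42.0, no filter, at least 10 counts in every library, no TMM, all 9 groups in a single fit, the replicate block and leaving out each heart. The fit was tested on simulated data. Intervals and floors cover counting error only where they come from counts.

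Named are the 6 genes, the core genes Mas1, Cma1 and Agtrap, in each other list up to 4 genes with the smallest adjusted p under 0.05 for MI against sham or cell sheet against MI in a zone, and the 3 genes most alike for members with a mean of at least 1 CPM. The genes and lists were chosen with earlier results of these data known. Mcpt1 and Kng1l1 are not listed as symbols in the tables. Some genes of the system are not reported here.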

Additional observations from a re-analysis of the deposited data

Results flagged for a closer look

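In groups of 6 hearts, a value was singled out where its gap to the nearest other value took up more of the group's range than Dixon's test allows at 95%, which chance does in about 1 in 20 groups. This held in 9 of 68 groups. Atp6ap2 in sham heart 5 was at 53.1 CPM in the infarct zone (nearest 23.2), 67.8 CPM in the border zone (nearest 20.5) and 56.1 CPM in the remote zone (nearest 20.1). Cell sheet heart 1 stood out in the remote zone for Ace (44.9 CPM, nearest 23.6), Agtr1a (21.0 CPM, nearest 8.16) and Atp6ap2 (34.0 CPM, nearest 21.7). Agt was at 1.75 CPM in MI border zone 1 (nearest 0.952) and at 1.58 CPM in MI infarct zone 4 (nearest 0.582). Cma1 was at 27.6 CPM in cell sheet remote zone 4 (nearest 5.16).

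The effect of MI on Ace differed between zones, being larger in the infarct than in the remote zone by 0.92 on the log2 scale in the interaction test.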

How the results depend on the processing

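Of 95 recomputed counts of members called, 84 stayed within 1.5 times the reported count, and of 4233 single values 3814 kept direction and side of the threshold, 57 reversed, 43 lost and 38 gained a call, and 281 moved. DESeq2 called 2 members for MI border against remote zone (0 by edgeR), 2 for the MI effect in border minus remote (0) and 2 in infarct minus remote (1, and 2 without TMM), and 1 for the sheet effect in border minus remote and 1 in infarct minus remote zone (0 each).

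Replicate numbers name different hearts in different treatments, so the main fits did not pair them. Correlations of same-numbered samples of different treatments ran from -0.68 to 0.55. That range cannot decide whether they were paired, because zones of the same heart gave -0.27 to 0.94. With the replicate block cell sheet against MI called 0 members in the border zone (2 without) and 0 on the summed zones (2). Without the block of the heart, the pairing of zones, the count was 2 (0) for MI border against remote, 1 (3) for MI infarct against remote and 0 (1) for sham infarct against remote zone. Reversed under the replicate block were Agtr1a for cell sheet against MI, border zone (-0.023, and -0.011 with all 9 groups), Cma1 for cell sheet against MI, remote zone (-0.41) and Mas1 on the summed zones (0.14, and 0.0057 without TMM). Agtrap reversed for cell sheet against MI, border zone (0.0054 without TMM), and for MI against sham, remote zone (0.12 without TMM, 0.0016 with at least 10 counts, 0.0037 with no filter). Atp6ap2 reversed for the sheet effect in border minus remote zone with DESeq2 (-0.0083) and for cell sheet against sham, remote zone, without both sham 5 and cell sheet 1 (0.049). The cause was not tested.

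Leaving out single hearts gave 0 to 3 members for cell sheet against MI, remote zone (3 without cell sheet 1). The summed zones gave 1 to 2 (1 without cell sheet 2 or 6 or MI 1, 3 or 6). The sheet effect in border minus remote and in infarct minus remote zone gave 0 to 1 (1 without cell sheet 1). Sham border against remote gave 0 to 1 (1 without sham 6). MI infarct against remote gave 1 to 3 (1 without MI 4 or 6, 2 without MI 2 or 3). The MI effect gave 0 to 3 in border minus remote (3 without MI 5) and 1 to 2 in infarct minus remote zone (2 without MI 3 or 5). Log2 fold changes that crossed 0 were Agt for cell sheet infarct against remote (-0.045 to 0.58), Agtr1a for sham border against remote (-0.18 to 0.063), cell sheet against MI, border (-0.28 to 0.18) and summed (-0.034 to 0.23), Agtr2 in border minus infarct (-1.88 to 0.16), Agtrap for cell sheet against MI, border (-0.13 to 0.029), summed (-0.047 to 0.081) and MI against sham, remote (-0.068 to 0.051), Atp6ap2 for sham border against remote (-0.028 to 0.070), the sheet effect in border minus remote (-0.16 to 0.14), summed (-0.14 to 0.045), infarct (-0.031 to 0.20), cell sheet against sham, remote (-0.35 to 0.21) and MI against sham, remote (-0.046 to 0.44), Cma1 for cell sheet against MI, remote (-0.94 to 0.69), and Mas1 summed (-0.23 to 0.21) and infarct (-0.82 to 0.085). In the permutation test Agtr2 for MI against sham, remote, ran from 0 to 0.23. With 0 to 3 reads in many libraries, depth limits Agtr1b and Agtr2.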
